A study of Mus musculus with 2 samples.

Results

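The 6 genes Mir23b, Mir27b, Mir24-1, Mir23a, Mir27a and Mir24-2 form the paralogous mir-23/27/24 clusters of the mouse, and they were taken by symbol from the 2202 miRNA genes of each deposited table. Their counts came from microRNA sequencing of hippocampal tissue ("layer of hippocampus" in the labels). The mice were B6CASTF1/J males, the first generation of a cross between C57BL/6 and CAST/Ei mice, aged 18 to 20 months. There was 1 group with 2 libraries, numbered as biological replicates 2 and 1, so the series holds no contrast between ages, sexes or treatments. The tissue entries of the labels differ while the donor entry is common to both, and no label states that different animals were used, so spreads and p-values describe this pair of samples and may be technical.

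MicroRNAs 23, 27 and 24 are cut from hairpins that lie side by side in a primary transcript, and mammals carry that transcript at a pair of loci. Bases 2 to 8 of a mature microRNA, its seed, choose most of the messenger RNAs it pairs with, and the genes of a cluster differ in the seeds of their 3p products while counterparts at the other locus are grouped in a family by them. The clusters are best known from blood vessels, where they have been described in endothelial growth and sprouting, and from T cells, and miR-23b and miR-27b have been described as limiting apoptosis in neurons. In human cells miR-23 was described as a repressor of glutaminase and miR-24 as a brake on cell cycle genes, and miR-27 is known as an inhibitor of fat cell formation.

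The clusters kept the same order and strand at both loci. In mm10 the chromosome 13 cluster runs on the plus strand with Mir23b at chr13:63300484-63300557, Mir27b at chr13:63300712-63300784 and Mir24-1 at chr13:63301208-63301275, over 792 bp in all. It lies inside the protein-coding gene 2010111I01Rik on the same strand, in an intron for Mir23b and overlapping an annotated exon for Mir27b and Mir24-1, and in an intron of the Fanconi anaemia gene Fancc on the other strand. The chromosome 8 cluster is more compact, at 404 bp, with Mir23a at chr8:84208518-84208592, Mir27a at chr8:84208672-84208758 and Mir24-2 at chr8:84208815-84208921 on the plus strand. No annotated gene overlaps Mir23a or Mir27a, the end of Mir24-2 meets an exon of the lincRNA Gm26532, and the nearest protein-coding genes are Zswim4, 1757 bp after Mir24-2, and Nanos3, 23301 bp before Mir23a. Each mir-24 gene has an annotated partner on the opposite strand, Mir3074-1 on chromosome 13 and Mir3074-2 on chromosome 8.

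**Figure D1:**
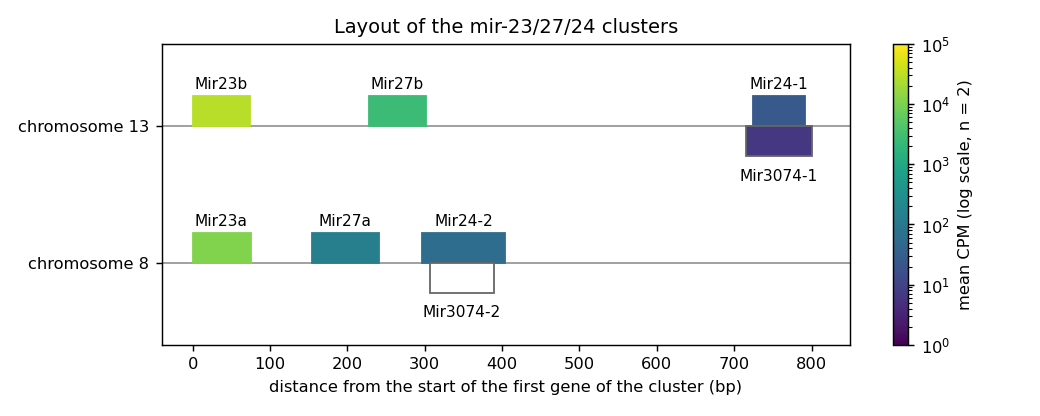
Position of the 6 genes and of their opposite-strand partners, as distance in bp from the start of the first gene of each cluster, with plus-strand genes above the line and minus-strand genes below it. The colour gives the mean CPM of 2 libraries on a log scale, and the white box, Mir3074-2, had no count. The chromosome 13 cluster spans 792 bp and the chromosome 8 cluster 404 bp.

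The mature sequences, from RefSeq on GRCm38.p6, are shown for products of both loci, because reads of a paralog can be assigned only where its sequence differs. Capitals mark the seed. Of the 3p product of Mir23b, miR-23b-3p, only the name is given.

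miR-23a-3p: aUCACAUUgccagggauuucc

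miR-23b-5p: gGGUUCCUggcaugcugauuu

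miR-23a-5p: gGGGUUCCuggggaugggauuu

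miR-27b-3p: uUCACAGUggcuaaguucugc

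miR-27a-3p: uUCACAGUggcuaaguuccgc

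miR-27b-5p: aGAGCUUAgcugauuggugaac

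miR-27a-5p: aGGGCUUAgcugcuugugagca

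miR-24-3p: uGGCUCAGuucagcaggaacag

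miR-24-1-5p: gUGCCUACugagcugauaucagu

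miR-24-2-5p: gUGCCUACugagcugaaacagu

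MicroRNAs 27b-3p and 27a-3p share their seed and differed by 1 substitution in 21 bases, C19U, written as the base of miR-27a-3p, the position counted from 1 at the 5′ end, and the base of miR-27b-3p. A read of either had to reach base 19 before its sequence was found in no annotated hairpin of another locus. The same length of 19 bases was needed for miR-23a-3p, whose hairpin shares a run of 20 nt with that of Mir23b. The mir-27 hairpins also share 20 nt. The 5p products of the mir-23 and mir-27 paralogs differ in seed. Compared position by position without gaps, miR-27b-5p and miR-27a-5p differ at 8 positions, a number that an alignment with gaps could lower.

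MicroRNA 24-3p is listed for both loci with the same 22 bases, and no start of it was found at a single locus. The run shared with the other locus was 28 nt for the Mir24-1 hairpin and 30 nt for the Mir24-2 hairpin, more than the whole mature sequence. The 5p products of the mir-24 genes differ in length. Compared position by position without gaps, they first differ at base 17, by A17U (the base of miR-24-2-5p, the position, the base of miR-24-1-5p). In the deposited tables a read that maps to several places enters no gene, and 46.7% of all reads in replicate 2 and 51.5% in replicate 1 were of that kind. The counts of Mir24-1 and Mir24-2 therefore leave out reads of miR-24-3p that map to both loci and are not tissue levels, and those of the mir-23 and mir-27 genes leave out reads too short to tell the paralogs apart.

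The libraries held 5598792 counts (replicate 2) and 3758318 counts (replicate 1) on the sense strand of miRNA genes. Levels below are CPM, counts per 1000000 such counts, and a gene without counts could by counting error alone lie at up to 3 counts, which is 0.536 CPM in replicate 2 and 0.798 CPM in replicate 1. The listed products of the 6 genes have nearly the same length, so CPM was not divided by length. Without molecular identifiers several reads can come from 1 molecule, so ratios between genes are ratios of counts and not of molecules. A gene was called detected at 10 or more counts in each library, which all 6 genes reached, as did 384 of the 2202 genes (17.4%). Of 14 neuronal marker genes, 10 reached 10 counts in both libraries, and the list summed to 53293 CPM (replicate 2) and 51516 CPM (replicate 1). All 5 astrocyte genes and all 6 microglia and leukocyte genes listed reached 10 counts as well. Detection of these markers therefore does not check the tissue label. No copy of Mir124a, a defining neuronal microRNA, reached 10 counts in both libraries, and Mir124a-3 had no count. A read that maps to several copies enters no gene, so a lack of counts is not a lack of the microRNA in the tissue.

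Together the 6 genes held 4.21% of the counted reads in replicate 2 and 4.41% in replicate 1, nearly all of it from the mir-23 genes. The chromosome 13 cluster summed to 31012 CPM (replicate 2) and 31814 CPM (replicate 1), and the chromosome 8 cluster to 11038 CPM and 12257 CPM in the same order. The clusters did not overlap in either library, with means of 31413 ± 567 CPM for chromosome 13 and 11648 ± 862 CPM for chromosome 8 (SD, n = 2 libraries, as for the other means). With 2 libraries on each side no permutation test could pass a threshold of 0.05, so the gap is given beside the spread and without a p-value.

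Mir23b, on chromosome 13, was the highest of the 6. It had 157867 counts (28197 CPM) in replicate 2 and 110952 counts (29522 CPM) in replicate 1, and its mean of 28859 ± 937 CPM ranked it 9 of the 2202 genes. The SD was 3.25% of the mean in CPM.

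Mir23a, its counterpart on chromosome 8, had 60387 counts (10786 CPM) in replicate 2 and 45526 counts (12113 CPM) in replicate 1. Its mean was 11450 ± 939 CPM, rank 18 in the mean and in each library. Both libraries of Mir23a lay below both libraries of Mir23b.

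Mir27b, the second gene of the chromosome 13 cluster, had 15624 counts (2791 CPM) in replicate 2 and 8533 counts (2270 CPM) in replicate 1. Its mean was 2531 ± 368 CPM, rank 58. Mir27a, the second gene on chromosome 8, had 949 counts (169.5 CPM) in replicate 2 and 416 counts (110.7 CPM) in replicate 1, with a mean of 140.1 ± 41.6 CPM and rank 177. The mir-27 genes thus stood below the mir-23 gene of their own cluster at both loci, in both libraries.

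Mir24-1 had 141 counts (25.2 CPM) in replicate 2 and 84 counts (22.4 CPM) in replicate 1, with a mean of 23.8 ± 2.00 CPM. Mir24-2 had 466 counts (83.2 CPM) in replicate 2 and 123 counts (32.7 CPM) in replicate 1, with a mean of 57.98 ± 35.7 CPM. The mir-24 genes were the lowest of each cluster, and theirs was the one family in which the chromosome 8 gene had more counts than the chromosome 13 gene. The order from Mir23b through Mir23a, Mir27b, Mir27a and Mir24-2 to Mir24-1 was the same in both libraries and no neighbours in it overlapped, but the lowest pair holds only what is unique to each locus.

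**Figure D2:**
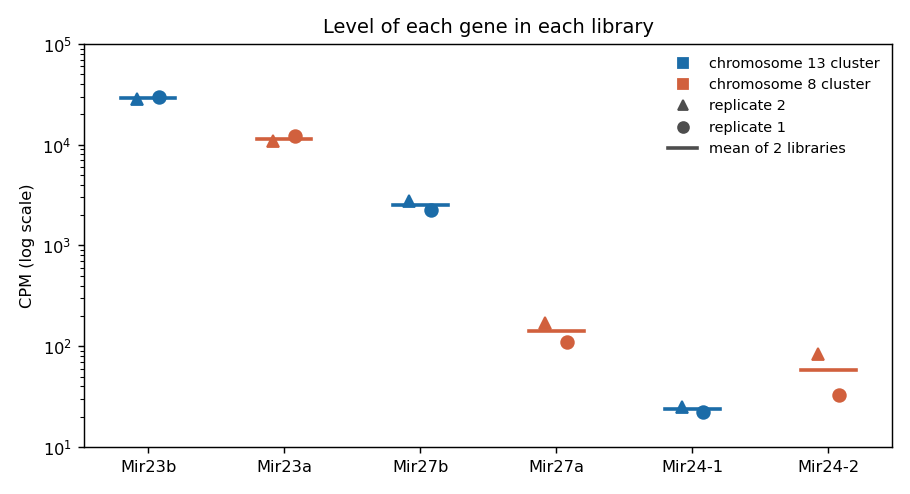
Level of each gene in CPM on a log axis, with a triangle for replicate 2, a circle for replicate 1 and a bar for the mean of the 2 libraries, in blue for the chromosome 13 cluster and orange for the chromosome 8 cluster. Mir23b and Mir23a lie above 10000 CPM in both libraries, and Mir24-1 and Mir24-2 below 100 CPM.

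Within a library the share of a paralog needs no scaling between libraries. Mir23b held 72.3% of the mir-23 counts in replicate 2 (exact Clopper-Pearson 95% interval 72.1 to 72.5%) and 70.9% in replicate 1 (70.7 to 71.1%). Mir27b held 94.3% of the mir-27 counts in replicate 2 (93.9 to 94.6%) and 95.4% in replicate 1 (94.9 to 95.8%). Mir24-1 held 23.2% of the mir-24 counts in replicate 2 (19.9 to 26.8%) and 40.6% in replicate 1 (33.8 to 47.6%). The intervals of the libraries did not overlap for any of the 3 families. These intervals take reads as independent and hold counting error alone. Without molecular identifiers several reads can come from 1 molecule, and the intervals are too narrow where they do.

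As ratios, Mir23b had 2.61 times the counts of Mir23a in replicate 2 and 2.44 times in replicate 1. Mir27b had 16.5 times the counts of Mir27a in replicate 2 and 20.5 times in replicate 1. On the log2 scale the ratio of chromosome 13 to chromosome 8 was 4.20 ± 0.22 for mir-27 and 1.34 ± 0.07 for mir-23, so the mir-27 ratio lay above the mir-23 ratio by more than either SD. With 2 libraries an exact permutation test could not pass a threshold of 0.05, and none was run. For mir-24 the log2 ratio was -1.14 ± 0.83, a value whose spread is close to its size and which rests on reads unique to a locus.

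**Figure D3:**
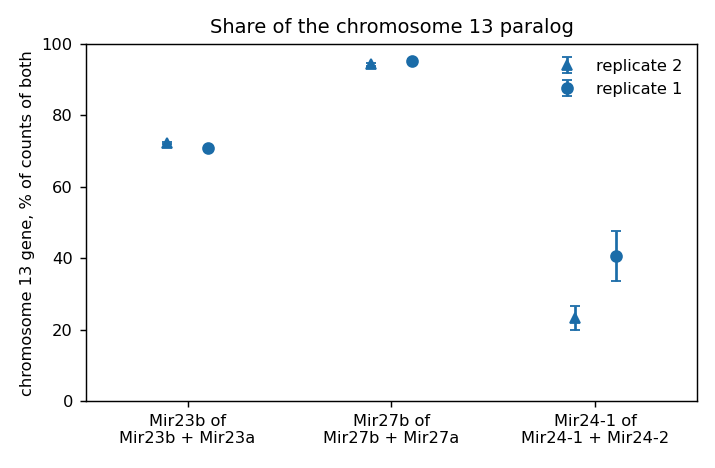
Share of the chromosome 13 gene in the counts of both paralogs, in percent, with a triangle for replicate 2, a circle for replicate 1 and bars for exact 95% intervals of counting error. The share is near 71 to 72% for mir-23, 94 to 95% for mir-27, and 23.2% in replicate 2 against 40.6% in replicate 1 for mir-24.

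The makeup of each cluster also moved between libraries. On chromosome 13, Mir23b held 90.9% of the counts of its cluster in replicate 2 and 92.8% in replicate 1, and Mir27b 9.00% and 7.14%. On chromosome 8, Mir23a held 97.7% in replicate 2 and 98.8% in replicate 1, Mir27a 1.54% and 0.903%, and Mir24-2 0.754% and 0.267%. Mir23b thus had 10.1 times the counts of Mir27b in replicate 2 and 13 times in replicate 1, whereas Mir23a had 63.6 times the counts of Mir27a in replicate 2 and 109 times in replicate 1.

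Between the libraries, 4 of the 6 genes were called different, 2 higher and 2 lower in replicate 2, in an exact two-sided binomial test of counts. Library sizes were scaled by TMM and p-values adjusted by Benjamini-Hochberg over all 384 detected genes. Over all of those genes the same test called 65.1%, with 31.0% higher and 34.1% lower in replicate 2, so the share of members called is near the background. The test compares these libraries and no conditions, and it takes reads as independent, so its p-values hold counting error alone and are too small where several reads come from 1 molecule. Mir23a was lower in replicate 2 by 1.40-fold (log2 ratio of replicate 2 to replicate 1 -0.48) and Mir23b by 1.30-fold (log2 -0.38), each with an adjusted p of at most 9.6e-300. Mir24-2 was 2.03-fold higher in replicate 2 (log2 1.02, adjusted p = 2.81e-13, exact binomial test) and Mir27a 1.23-fold higher (log2 0.30, adjusted p = 7.32e-04, exact binomial test). Mir27b (log2 -0.02, adjusted p = 0.393, exact binomial test) and Mir24-1 (log2 -0.15, adjusted p = 0.557, exact binomial test) did not pass.

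These folds depend on the scale. With total counts in place of TMM the median log2 ratio of all detected genes was 0.29 and not -0.02, and calls split into 195 higher and 76 lower in replicate 2 (72.0% of calls higher, against 47.6% with TMM). On that scale Mir27b was called higher in replicate 2 (log2 0.30, adjusted p = 2.46e-53, exact binomial test), and Mir24-1 turned to a positive ratio (log2 0.17) without passing. Mir23b (log2 -0.07) and Mir23a (log2 -0.17) were still called lower in replicate 2 with total counts, by much less than with TMM. Mir27a (log2 0.61) and Mir24-2 (log2 1.34) were called higher by more. With DESeq2 size factors these 4 genes kept the direction and call they had with TMM. Without regard to direction, detected genes differed by a median of 1.36-fold, and the biological coefficient of variation by the edgeR common dispersion was 34.4%. The word biological is the method's name for it, and this spread between the 2 libraries may be technical. Of the 6, only Mir24-2 and Mir23a differed by more than that median fold.

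**Figure D4:**
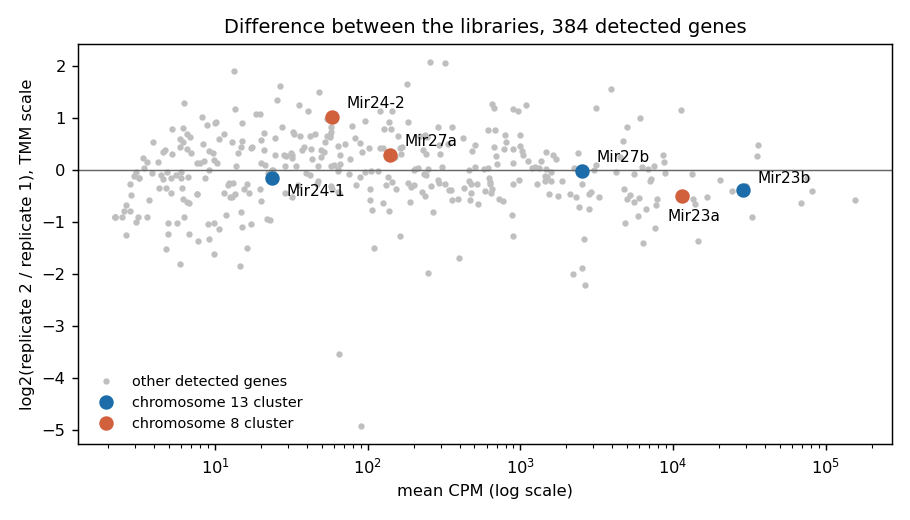
Log2 ratio of replicate 2 to replicate 1 on the TMM scale against mean CPM on a log axis for the 384 genes with at least 10 counts in both libraries. The 6 genes, in blue for the chromosome 13 cluster and orange for the chromosome 8 cluster, lie between -0.48 (Mir23a) and 1.02 (Mir24-2), within the cloud of other genes in grey.

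The genes of a cluster did not all keep their ratio to each other between the libraries. The log2 ratios of Mir27b and Mir24-1 differed by 0.13, those of Mir23b and Mir24-1 by 0.23 and those of Mir23b and Mir27b by 0.36. On chromosome 8 the differences were 0.73 for Mir27a and Mir24-2, 0.78 for Mir23a and Mir27a, and 1.51 for Mir23a and Mir24-2. The differences were smaller among the chromosome 13 genes than among the chromosome 8 genes, and 1 value per pair of genes allows no test of that. As a description, the median difference was 0.60 over the 390 pairs of detected genes that lie on 1 strand within 10 kb of each other, and 0.65 over all 73536 pairs of detected genes.

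The opposite-strand partners of the mir-24 genes had few counts. Mir3074-1 had 48 counts (8.57 CPM) in replicate 2 and 14 counts (3.73 CPM) in replicate 1, and Mir3074-2 had none in either library. Mir3074-1 held fewer counts than Mir24-1 in both libraries. The miR-3074-5p sequence is itself listed for both loci, so its reads too could enter no gene when they map to both. In the unstranded column Mir24-1 and Mir24-2, which each overlap a partner, had 0 counts in both libraries, while the counts of Mir23b, Mir27b, Mir23a and Mir27a were the same with and without strand.

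The other miRNA genes within 50 kb of a member were Mir181d and Mir181c, on the minus strand of chromosome 8 about 30 kb before Mir23a. Mir181c had 2016 CPM in replicate 2 and 1382 CPM in replicate 1, and Mir181d had 1649 CPM and 1529 CPM in the same order. Both lay below Mir23a and above Mir27a in each library.

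By level in the 2 libraries, Mir23a was most like Mir126a, the microRNA of endothelial cells, with a distance of 0.03 on the log2(CPM + 1) scale. Mir126a had 10726 CPM in replicate 2 and 11853 CPM in replicate 1. Mir23b was most like Mir127 of the imprinted Dlk1-Dio3 cluster (distance 0.10; 30115 CPM in replicate 2 and 29869 CPM in replicate 1), and Mir27b was most like the neuronal Mir128-2 (distance 0.17). The nearest to Mir27a was Mir188 (0.17), to Mir24-2 Mir574 (0.13) and to Mir24-1 Mir6769b (0.11). A match over 2 libraries describes a like level and a like difference between them.

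A list of other microRNAs described in blood vessel growth was set beside the clusters. Of its 12 names, 9 matched an annotated symbol, and all 9 were detected, with sums of 48432 CPM in replicate 2 and 51373 CPM in replicate 1. The names Mir18a, Mir92a-1 and Mir92a-2 did not match because these genes are annotated as Mir18, Mir92-1 and Mir92-2. They were detected too, but the sums, calls and medians given here leave them out. With TMM, Mir92-1 was called higher in replicate 2 (log2 0.31) and Mir18 lower (log2 -0.58), and Mir92-2 (log2 0.14) was not called. The highest were Mir132 at 16652 ± 1642 CPM, Mir126a at 11290 ± 797 CPM and Mir221, a microRNA of smooth muscle growth, at 8848 ± 1134 CPM. Mir132 is also in the neuronal list, where it has the highest mean level, so the sum is not one of vessel cells alone. Mir23b stood above all 9 in both libraries. Of the 9, 2 were called higher in replicate 2 (Mir222 and the hypoxia gene Mir210) and 7 lower, where 31.0% of all detected genes were called higher and 34.1% lower. The 9 had a median log2 ratio of -0.21 against -0.02 over all detected genes. With total counts 5 were called higher and 4 lower, where 195 of the 384 detected genes were called higher and 76 lower. The median log2 ratio of the 9 was then 0.11, against 0.29 over all detected genes, so its direction depends on the scale.

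Lists of cell type markers were read beside the difference of Mir23b and Mir23a. With TMM the median log2 ratio was -1.11 for the endothelial and mural list and -0.43 for the microglia and leukocyte list. It was -0.31 for the neuronal list and -0.19 for the astrocyte list. The medians of the oligodendrocyte (0.22), choroid plexus (0.61) and erythroid (0.06) lists were positive. The oligodendrocyte and erythroid medians rest on 2 detected genes each, of opposite sign. These were Mir338 (0.84) and Mir219a-2 (-0.41), and Mir451a (0.36) and Mir144 (-0.24). The erythroid list leaves out Mir486 (log2 0.44, not called), because it was listed as Mir486a. The endothelial and mural list summed to 16510 CPM (replicate 2) and 22045 CPM (replicate 1), with 3 of 4 members detected and Mir126b at 0. All 3 were called lower in replicate 2 with TMM, DESeq2 size factors and total counts. The 3 detected members, Mir126a, Mir143 and Mir145a, are also in the vessel growth list. Mir143 of smooth muscle had 5562 CPM in replicate 2 and 9621 CPM in replicate 1, and Mir145a 222 CPM and 572 CPM. With TMM the neuronal list had 3 members called higher and 7 lower in replicate 2, the astrocyte list 2 and 3, the microglia and leukocyte list 0 and 4, the oligodendrocyte list 1 and 1, the choroid plexus list 3 and 0, and the erythroid list 1 and 0. With total counts the neuronal list had 5 higher and 4 lower, the astrocyte list 3 and 2, the microglia and leukocyte list 0 and 3, the oligodendrocyte list 1 and 1, the choroid plexus list 4 and 0, and the erythroid list 1 and 0. The microglia and leukocyte list, like the endothelial and mural list, thus had members called lower and none higher on both scales. Calls in most members of a list are read against the 31.0% of all detected genes called higher and the 34.1% called lower with TMM. With total counts the background was 195 genes called higher and 76 lower of 384 detected. Whether cell makeup has a part in the difference of Mir23b and Mir23a was not tested. In whole tissue, fewer cells of a type and less RNA per cell cannot be told apart.

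Sequence shared between loci is common among miRNA genes, and the 6 genes fall into separate classes by it. Mir23b, Mir27b, Mir23a and Mir27a, with runs of 20 nt, belong to the 103 genes whose longest run shared with a hairpin of another locus is 18 to 21 nt, of which 22.3% were detected, at a median of 988 CPM. Mir24-1 and Mir24-2 belong to the 1032 genes with a run of 22 nt or more, of which 6.59% were detected, at a median of 131 CPM. Of the 1067 genes with shorter runs, 27.5% were detected, at a median of 78.4 CPM.

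**Figure D5:**
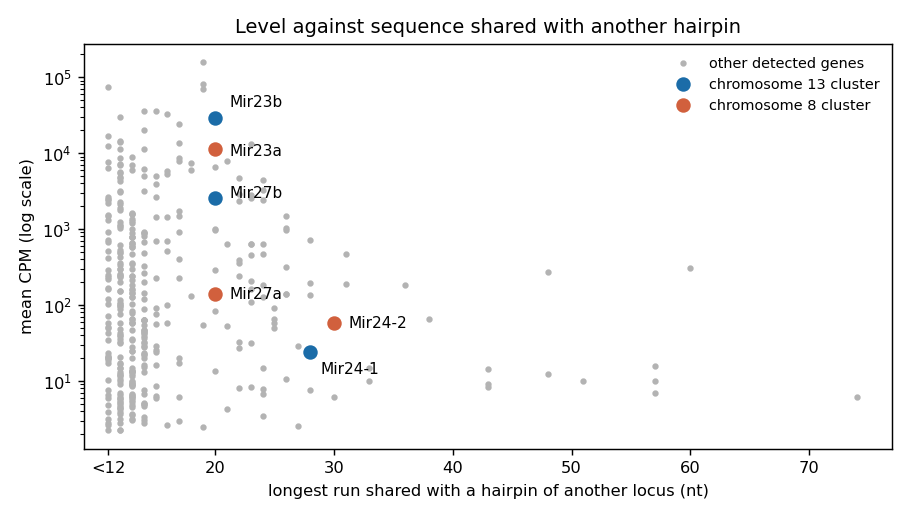
Mean CPM on a log axis against the longest run, in nt, that each detected hairpin shares with an annotated hairpin of another locus, on either strand, with runs under 12 nt drawn at 1 position. Mir23b, Mir27b, Mir23a and Mir27a share 20 nt and range from 140.1 to 28859 CPM, and Mir24-1 (28 nt) and Mir24-2 (30 nt) lie at 23.8 and 57.98 CPM.

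The mir-24 genes were also set beside other genes with identical mature sequences. Among 45 sets of genes that list a mature sequence in common, the mir-24 pair ranked 19 by summed level, at 81.7 CPM. The sets rest on listed products alone, and the list is not complete. It lacks the sequence of miR-23b-3p, and no set holds the Mir124a copies. The highest sums were 15847 CPM for Mir128-1 and Mir128-2, 6829 CPM for Mir138-1 and Mir138-2, and 5110 CPM for Mirlet7f-1 and Mirlet7f-2. Of the 92 genes in those sets 48.9% were detected, at a median of 136 CPM, against 32.2% of the 926 other genes with a listed mature sequence, at a median of 106 CPM. Which reads of these genes were long or distinct enough to be counted is not in the tables and was not tested.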

How the data were processed

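The authors deposited raw read counts per miRNA gene for each library, in whole numbers and without normalization, made on mm10 with GENCODE annotation M21 per the text deposited with the tables. No aligner or counter is named in the sources used here. Of the unstranded and 2 stranded count columns, the stranded one with the larger total was used as sense. The 4 summary lines (unmapped, multimapped, outside features, ambiguous; 64.5% and 65.3% of reads in replicates 1 and 2) stayed out of library sizes and tests.

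Symbols, coordinates and hairpins came from GENCODE M21, which matched all 2202 identifiers. Mature sequences came from RefSeq (GRCm38.p6), which lists 1032 of the file's genes, 1018 of them with a mature sequence. Shared runs were computed over all annotated hairpins on both strands, leaving out genes that overlap. Detection required 10 counts in both libraries. TMM scaling and the common dispersion used edgeR 4.0.16, and binomial tests scipy 1.17.1 with a threshold of 0.05, a pseudocount of 1 count for log2 ratios, and p-values no smaller than 1e-300. The test and the dispersion estimate were tested on simulated data. Alternatives were DESeq2 1.42.0 size factors, total counts, other filters, a chi-square test, other strands, other denominators, and each replicate left out.

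The members and the lists were chosen with earlier results of these data known. Named genes were the members, genes overlapping or within 50 kb of them, the most alike gene of each, list leaders, and the 3 highest sets with identical mature sequence.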

Additional observations from a re-analysis of the deposited data

Results flagged for a closer look

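Counts on the strand opposite to a member, which no level in the text uses, passed the 3 counts that a count of 0 allows for Mir24-1 alone, with 48 in replicate 2 and 14 in replicate 1. They equal the sense counts of Mir3074-1, its annotated partner on the other strand. The remaining 5 genes had 0 opposite-strand counts in both libraries.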

How the results depend on the processing

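Mean levels moved beyond their replicate SD with other columns and denominators. Per 1000000 unstranded counts, Mir23b had 31240, Mir23a 12394, and Mir24-1 and Mir24-2 0. On that scale the clusters summed to 33979 (chromosome 13) and 12546 (chromosome 8). Per 1000000 opposite-strand counts, a much smaller total, Mir24-1 had 80.8 and the other 5 genes 0. On the sense scale used elsewhere, the same counts are 8.57 CPM in replicate 2 and 3.73 CPM in replicate 1. Both lie below the sense level of Mir24-1. Per 1000000 reads of all kinds, Mir23b had 10129.5, Mir27b 887, Mir24-1 8.33, Mir23a 4020.3, Mir27a 49.0 and Mir24-2 20.2. With the most abundant gene left out of the denominator, Mir23b had 34227 CPM, Mir27b 2995 CPM, Mir24-1 28.1 CPM and Mir23a 13587 CPM. Genes called higher in replicate 2 numbered 195, and lower 76, with total counts, which also turned Mir27b to a log2 ratio of 0.30. Without a count filter, 266 of 752 genes were called. Of 127 alternative values, 102 stayed within the replicate spread, within 1.5 times the count, or on the same side of the threshold. Part of that total was fixed in advance. With 2 libraries, a level or share with a replicate left out always lies within the SD of the mean. The unstranded shares of mir-23 and mir-27 rest on the same counts as the main ones. The total is therefore no measure of robustness. Leaving out a replicate ends the comparison between libraries, so it gave no value there. The unstranded column gave no share for mir-24. No paired analysis was possible because there is 1 group. Counting error was widest, relative to the value, for the mir-24 shares, which rest on 607 counts in replicate 2 and 207 in replicate 1.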
